A study of Mus musculus with 4 samples.

Results

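The data describe 49 genes of immune, complement and interferon families in mouse embryonic stem cells given CID755673, an inhibitor of protein kinase D, together with an inhibitor of MEK. The 46C line has green fluorescent protein knocked into Sox1, a gene of early neural cells. Serum medium held 1 µM of PD0325901, which blocks MEK, the kinase that activates ERK, and the exposure lasted 24 h in both groups. The labels name nothing else for the PD group, and for the PC group they add CID755673, at a dose they do not state. Whether PD cells received a vehicle is not labelled. Each group had 2 libraries of total RNA, so both groups share the MEK inhibition and no untreated cells were compared.

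The 49 genes were chosen by symbol from the 1593 rows of the authors' deposited table. The symbols covered major histocompatibility genes (H2-), complement components, guanylate-binding proteins, interferon-induced genes and regulatory factors, Oas genes, chemokines, interleukins, tumor necrosis factor (TNF) family genes, CD antigens, Fc and Toll-like receptors, Ly6, Klr, Nlrp, Ms4a, caspases and serpins. Of 50 matching rows 1, Cd14, was left out because its pathway annotation fell under a category set aside by the rule. No Klr, Nlrp or Fcer symbol was in the table. The rule used symbols, but the authors had chosen the rows on this same contrast, with an absolute log2 change of at least 1.0 and a p of at most 0.0498. Directions and calls of the 49 genes therefore describe these libraries and do not test the families, and family members outside the table are not analysed here.

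These families serve the recognition and removal of pathogens. Class I and class II major histocompatibility molecules present peptides to T cells, complement proteins form a proteolytic cascade that marks cells for destruction, and interferons induce antiviral effectors through STAT and IRF transcription factors. Pluripotent stem cells are known for a weak interferon response and for expressing some interferon-induced genes constitutively, Ifitm3 among them. Several of these symbols also name genes that work outside immunity, such as Casp14, a caspase gene of the epidermis.

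Values are normalized reads, that is reads divided by 1 size factor per library. Listed genes summed to between 433684 reads (PC replicate 2) and 683777 (PD replicate 2). The full depth of the libraries is unknown. A log2 change is PC minus PD on the scale log2(value + 1), which shrinks the change of weakly read genes. A gene was called where limma, fitted to all 1593 listed genes, gave an adjusted p under 0.05. The Benjamini-Hochberg adjustment ran over 31432 genes. This number of genes tested by the authors was inferred from their deposited p-values and false discovery rates. Whether replicates were separate cultures is not labelled, and the p-values reflect only how far these samples differ, which may be technical. In bulk RNA fewer cells of a type and less RNA per cell cannot be told apart. Of 10 embryonic stem cell markers, the listed ones were Lin28a, Tdh and Utf1, with summed levels of 34231.0 and 35052.0 in PD and 14401.5 and 13885.0 in PC, and the other markers are not analysed here.

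With CID755673, 14 of the 49 genes were called, or 28.6%, against 31.1% of all listed genes. Of these 11 fell and 3 rose. The genes that fell were Ifitm3, Cd80, Serpinb6c, Ms4a14, Casp14, H2-Eb1, Ms4a10, Tnfaip6, C4b, Fcgr3 and Ccl2, and H2-Bl and Irf5 were among those that rose. Thus 22.4% of the 49 genes fell and 6.12% rose, beside 19.8% and 11.2% of all listed genes. The values of 31 of the 49 genes, or 63.3%, were lower in PC, beside 61.5% of listed genes, and the median log2 change was -1.24 beside -1.17. In the share called by limma and the share with lower values the families thus lay close to the table as a whole. The share that rose was smaller than in the table, but it rested on 3 genes. In the authors' deposited table, 40 of the 49, or 81.6%, had a false discovery rate under 0.05, against 70.2% of all listed genes.

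Leaving out 1 library ended nearly all calls. limma called only Ccl2 and Fcgr3 without PD replicate 1 or without PD replicate 2. Both genes were at 0 reads in both PC libraries, so the spread behind these calls came from a pair of zeros and they show no stability. limma called 0 of the 49 without PC replicate 1 or without PC replicate 2. The authors had listed rows with a p of at most 0.0498 on this contrast, so unadjusted p-values of these genes show little. With a prior for the spread that ignores expression level, limma also called 0 of the 49, and 1 of all listed genes. In all 49 genes both PC libraries lay on the same side of both PD libraries, as did those of 99.7% of listed genes, so leaving out a library cannot reverse a direction.

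**Figure D1:**
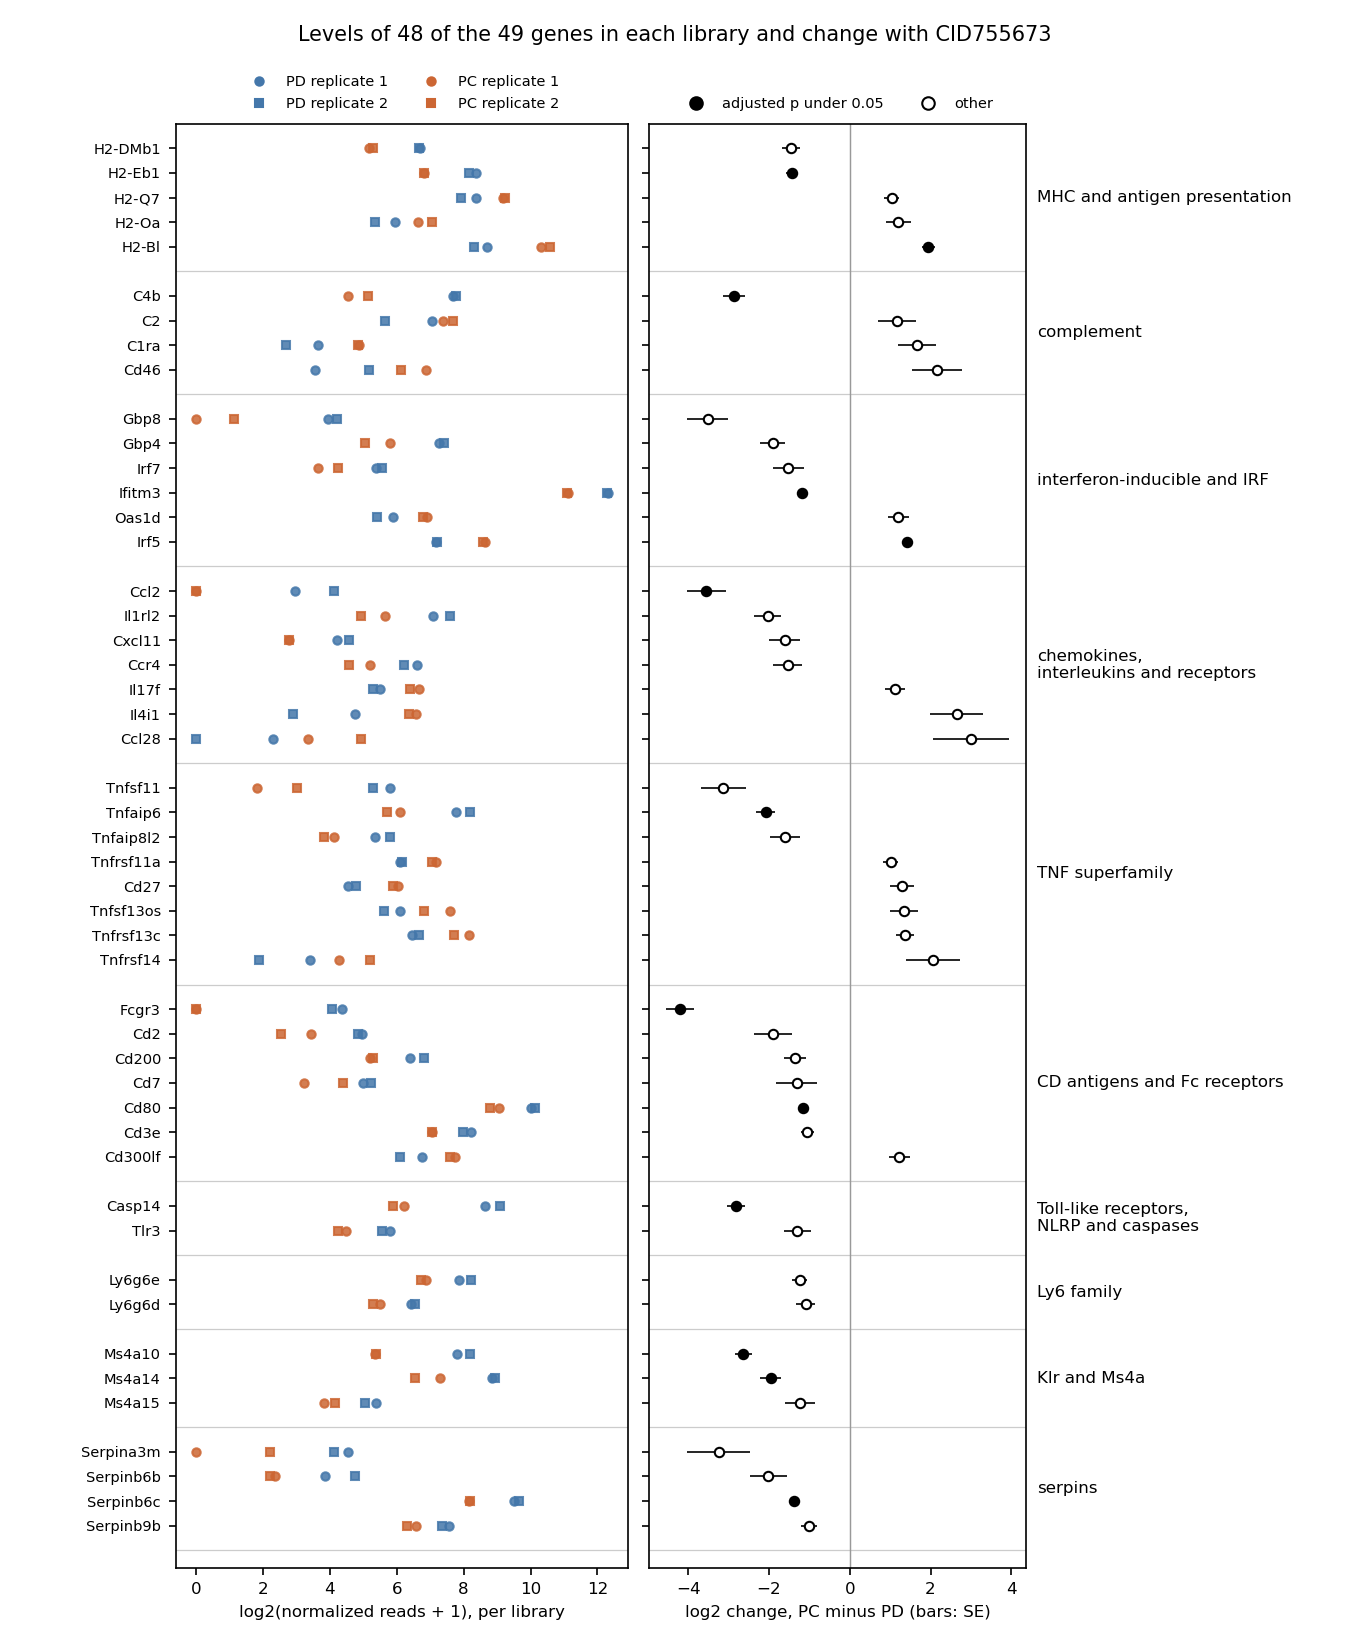
Left, log2(normalized reads + 1) of 48 of the 49 genes in each library, blue for PD and orange for PC, with circles for replicate 1 and squares for replicate 2. Right, the log2 change PC minus PD with its standard error, filled where the adjusted p was under 0.05. Genes are grouped by role, and in each gene shown the blue and orange points do not overlap.

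The following stretches of DNA are shown because they belong to the genes that open the interferon and class II results. The first is the part of the Ifitm3 window that holds both matches to the interferon-stimulated response element (ISRE), searched on both strands as GAAA repeated after any 2 bases, and both lie just after the annotated start. The others are the 250 bases before the annotated starts of H2-Eb1, H2-DMb1 and H2-Oa, the class II genes of the table. Sequences are from RefSeq on GRCm38.p6, each read 5′ to 3′ on the strand of its gene.
Ifitm3, chr7:141010715-141010743, minus strand: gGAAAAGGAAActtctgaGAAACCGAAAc
H2-Eb1, chr17:34305617-34305866, plus strand: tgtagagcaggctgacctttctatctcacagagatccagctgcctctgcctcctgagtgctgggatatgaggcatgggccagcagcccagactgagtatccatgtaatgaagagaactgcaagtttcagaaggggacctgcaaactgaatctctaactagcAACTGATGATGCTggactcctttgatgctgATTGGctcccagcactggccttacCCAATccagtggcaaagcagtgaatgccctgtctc
H2-DMb1, chr17:34152941-34153190, plus strand: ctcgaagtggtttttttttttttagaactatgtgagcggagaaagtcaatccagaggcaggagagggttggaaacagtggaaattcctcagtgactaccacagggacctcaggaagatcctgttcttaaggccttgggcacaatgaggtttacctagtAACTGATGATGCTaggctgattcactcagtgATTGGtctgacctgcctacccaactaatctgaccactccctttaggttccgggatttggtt
H2-Oa, chr17:34092129-34092378, plus strand: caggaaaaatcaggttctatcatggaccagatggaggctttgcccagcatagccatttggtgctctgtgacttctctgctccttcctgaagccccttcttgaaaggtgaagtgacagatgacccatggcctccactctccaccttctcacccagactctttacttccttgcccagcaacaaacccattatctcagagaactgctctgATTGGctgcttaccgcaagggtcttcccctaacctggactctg
Capitals mark the ISRE letters in Ifitm3. In the class II genes they mark CCAAT on either strand, the core of the Y box of class II promoters, and AACTGATGATGCT, the longest word that H2-Eb1 and H2-DMb1 share in these stretches, chosen after they were seen. The X box of class II promoters includes letters of this word. Promoter windows, 250 bases before to 50 after a start, were found for 35 of the 49 genes. The ISRE letters were in 3 of the 35 (Cd46, Ifitm3 and Tnfrsf14), beside 3.4% of all 32851 windows, 4.0% of all genes with a window and 6.1% of the listed genes with one. CCAAT was in 8 of the 35, or 22.9%, beside 37.4% of all windows, 41.1% of all genes with a window and 39.4% of the listed genes with one. The shared word of 13 letters was in 3 windows of the 32851, those of H2-Eb1 and H2-DMb1 from which it was taken among them, and not in that of H2-Oa. Letters found in a window are a description and show no binding.

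Of the 6 interferon-inducible genes and IRF factors, 1 fell, 1 rose and 4 were not called. Ifitm3, a membrane protein that blocks virus entry and marks early germ cells, had 5051.1 and 5037.0 normalized reads in PD and 2247.7 and 2174.6 in PC. The libraries of each group nearly coincided, and Ifitm3 fell by 1.19 in log2 units (limma with Benjamini-Hochberg adjustment, SE 0.08, adjusted p = 0.012), with 2.28-fold less in PC. It supplied 41.5% and 40.9% of the summed normalized reads of the 49 genes in PD and 26.5% and 26.3% in PC. Of the 50-base words in its transcripts 10% occur in those of other genes, with Gm7676 and Ifitm2 among them, so part of its reads may be shared. Irf5, a transcription factor downstream of Toll-like receptors, stood at 144.5 and 145.7 in PD and at 401.0 and 378.3 in PC. Irf5 rose by a log2 change of 1.42 (SE 0.13, adjusted p = 0.015 by limma with Benjamini-Hochberg adjustment), while its exons overlap Tnpo3 on the other strand. No source used here gives the strand setting of the counting, so reads of overlapping genes cannot be told apart.

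Irf7, the factor that amplifies type I interferon production, had the opposite direction to Irf5 in value. It had 40.7 and 45.8 normalized reads in PD and 11.6 and 17.8 in PC, and was not called (limma with Benjamini-Hochberg adjustment, adjusted p = 0.3). Its gene lies near Ifitm3 on chromosome 7, with 13 protein-coding genes between them, and overlaps Phrf1 on the other strand. Gbp4, an interferon-induced GTPase, had 153.2 and 168.6 in PD and 54.7 and 32.1 in PC, a log2 change of -1.91 (SE 0.31) that was not called (limma with Benjamini-Hochberg adjustment, adjusted p = 0.077). Its relative Gbp8 had 14.5 and 17.4 in PD, none in PC replicate 1 and 1.2 in PC replicate 2. Exons of the pair overlap each other and Gbp9, and 18.1% of the words of Gbp8 occur in other genes, so their single values are uncertain. Oas1d, an Oas1 relative known from oocytes, had 58.2 and 41.2 in PD and 118.5 and 109.4 in PC, higher in value and not called. The groups of each of these genes were apart, but Gbp8, with 15 and 19 reads in PD, had 0 and 1 in PC, under the floor of 3 reads.

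From 37 interferon-stimulated genes, 6 were in the table, all with lower values in PC, and 2 fell. Of all listed genes 61.5% had lower values and 19.8% fell. The 6 genes are few, and a difference from the table was not tested. Their median log2 change was -1.50, beside -1.17 over all listed genes, which include genes with higher values. Besides Ifitm3 the gene that fell was Ddx58, which encodes the RNA sensor RIG-I. It had 753.4 and 744.2 normalized reads in PD and 299.1 and 241.5 in PC, a log2 change of -1.47 (SE 0.14, adjusted p = 0.017 by limma with Benjamini-Hochberg adjustment). The GTPase gene Irgm1 was at 79.1 ± 25.5 in PD and 22.3 ± 10.5 in PC (SD, n = 2), and the antiviral enzyme gene Rsad2 at 57.2 ± 8.3 and 26.2 ± 6.6. Zbp1, a sensor of Z-form nucleic acid, was at 36.4 ± 6.1 in PD and 4.7 ± 1.6 in PC. None of these 3 was called. Tlr3, the endosomal sensor of double-stranded RNA, had 54.3 and 45.8 in PD and 21.5 and 17.8 in PC and was not called. From 19 genes of interferon induction and reception the listed ones were Irf5 and Tlr3, with opposite directions. Isg15, Ifit1 and the other genes of these lists outside the table are not analysed here.

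**Figure D2:**
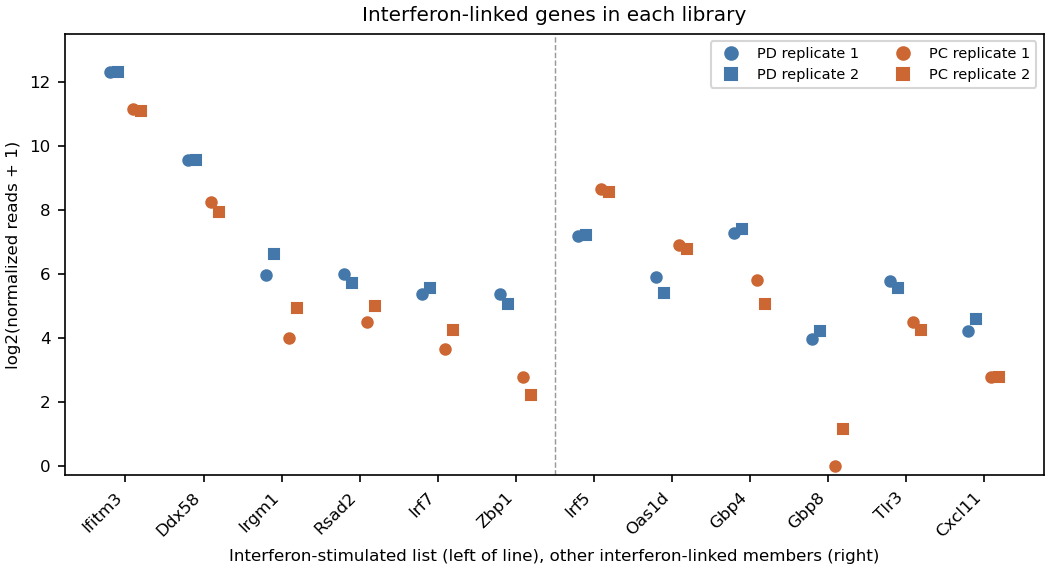
log2(normalized reads + 1) in each library (blue PD, orange PC; circles replicate 1, squares replicate 2) for the listed genes of the interferon-stimulated list, left of the dashed line, and for other interferon-linked members. The orange points lie below the blue ones in all 6 genes of the list, and above them in Irf5 and Oas1d. Of all listed genes 61.5% had lower values in PC.

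Of the 5 H2 genes 1 rose, 1 fell and 3 were not called. H2-Bl, a class Ib gene annotated in GENCODE M21 as a polymorphic pseudogene, had 413.1 and 318.0 normalized reads in PD and 1276.7 and 1537.0 in PC. Both PC libraries were far above both PD libraries, and H2-Bl rose by 1.95 in log2 units (limma with Benjamini-Hochberg adjustment, SE 0.17, adjusted p = 0.015). H2-Q7, a class Ib gene of the Qa-2 group, had 330.7 and 242.9 in PD and 573.3 and 598.4 in PC, and its log2 change of 1.04 (SE 0.18) was not called (limma with Benjamini-Hochberg adjustment, adjusted p = 0.089). Of its words 26.5% occur in other genes, H2-Q10, H2-Q5 and H2-Q6 among them, beside 9.6% for H2-Bl. From 19 genes of class I presentation the 1 in the table was Nlrc5, the transactivator of class I genes. Nlrc5 fell from 195.9 and 195.2 normalized reads in PD to 76.2 and 57.1 in PC (log2 change -1.55, SE 0.21, adjusted p = 0.044 by limma with Benjamini-Hochberg adjustment). Its direction was opposite to that of H2-Bl. The H2-K1, H2-D1 and B2m genes are not analysed here.

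Class II genes were split in direction. H2-Eb1, the beta chain of a class II molecule, fell from 326.8 and 284.1 normalized reads in PD to 112.7 and 111.8 in PC, a log2 change of -1.43 (SE 0.15, adjusted p = 0.021 by limma with Benjamini-Hochberg adjustment). H2-DMb1, a subunit of the chaperone that loads peptides onto class II molecules, had 102.8 and 99.9 in PD and 34.8 and 38.1 in PC, with a change of -1.45 (SE 0.23) that was not called (adjusted p = 0.075 in limma). H2-Oa, a subunit of the inhibitor of that chaperone, had 61.1 and 39.4 in PD and 97.8 and 133.2 in PC and was not called. Both genes whose printed sequence holds the shared word were lower in value in PC, and H2-Oa was higher. The word was taken from H2-Eb1 and H2-DMb1 themselves, so this match tests no link between word and direction. H2-DMb1 shares 22.7% of its words with H2-DMb2, and exons of H2-Oa overlap BC051537 on the other strand. From 10 class II presentation genes these 3 were listed, and Ciita and Cd74 are not analysed here.

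Among the complement genes C4b fell, and C1ra, C2 and Cd46 were not called. C4b, whose product is cleaved to tag surfaces in the classical and lectin pathways, had 203.6 and 215.4 normalized reads in PD and 22.4 and 34.5 in PC. It fell by 2.87 in log2 units (limma with Benjamini-Hochberg adjustment, SE 0.28, adjusted p = 0.017), with 7.37-fold less in PC. Of its words 34.6% occur in C4a, a near-identical neighbour, so the split of reads between the genes is uncertain.

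The listed proteases of the classical pathway, C1ra and C2, were higher in value without a call. C2, cleaved to form the C3 convertase, had 130.9 and 49.5 in PD and 166.5 and 203.4 in PC. The PD libraries differed 2.65-fold from each other, more than the 2.05-fold between the group means. C1ra, the protease that activates the cascade, had 11.6 and 5.5 in PD and 28.2 and 27.4 in PC. Of its words 50.8% occur in other genes, C1rb among them, and 41.5% of those of C2 occur in Gm20547 or Zbtb12. Cd46, a complement regulator found in mouse mainly in testis, had 10.7 and 34.8 in PD and 116.0 and 69.0 in PC, and its exons overlap A330023F24Rik on the other strand. From 23 complement components 3 were in the table (C1ra, C2 and C4b), and from 16 regulators and receptors Cd46 and Itgb2 were among those listed. Itgb2, the shared chain of the integrin receptors for fragments of C3, fell from 170.7 and 224.5 to 29.0 and 41.6 normalized reads (adjusted p = 0.026 in limma).

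Of the 49 genes 9 lay on chromosome 17, all in the major histocompatibility region, more than on any other chromosome. The rule chose H2 symbols, which name genes of this region, so this number follows in part from the rule. The 9 genes, in their order along the chromosome, were H2-Oa, H2-DMb1, H2-Eb1, C4b, C2, Ly6g6d, Ly6g6e, H2-Q7 and H2-Bl. Values were higher in H2-Oa, lower in the next 3, higher in C2, lower in the Ly6 pair and higher in the last 2. C4b thus fell while C2, with 7 protein-coding genes between them, was higher in value. The span from H2-Oa to H2-Bl holds 116 protein-coding genes, and 14 of the genes in it were in the table, 7 higher and 7 lower in value. Elsewhere nearby relatives shared a direction in value. Ms4a10 and Ms4a15 on chromosome 19, Gbp8 and Gbp4 on chromosome 5, and Serpinb6b, Serpinb9b and Serpinb6c on chromosome 13 were all lower. Lower values were also found in 61.5% of all listed genes, and the overlapping Gbp8 and Gbp4 are not separate observations.

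**Figure D3:**
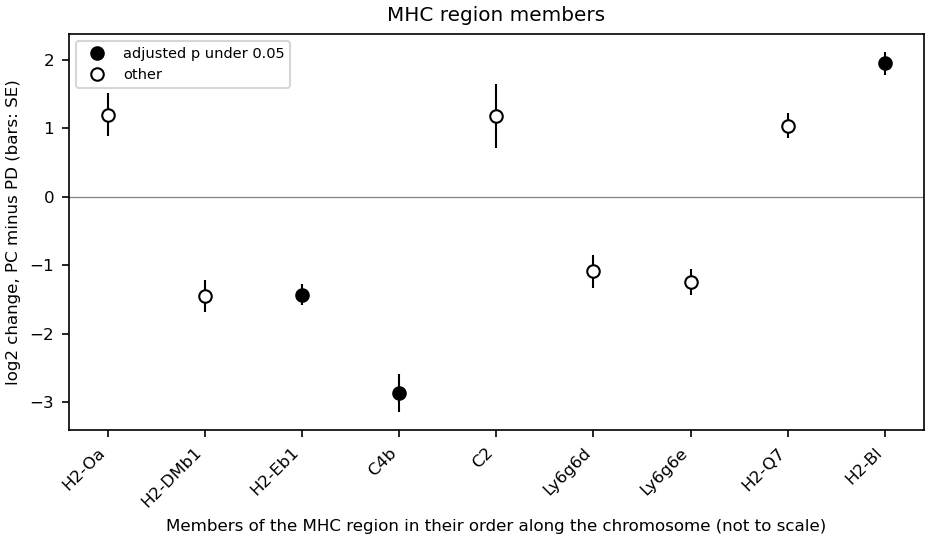
log2 change PC minus PD (bars, standard error) of the 9 members on chromosome 17 in their order along it, with filled points for an adjusted p under 0.05. C4b and H2-Eb1 lie below 0 and H2-Bl above it among the filled points, and both signs occur along the region.

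Ly6g6d and Ly6g6e encode surface proteins of the Ly6 family, anchored by glycosylphosphatidylinositol. Ly6g6e had 230.8 and 296.0 normalized reads in PD and 116.0 and 104.7 in PC, a log2 change of -1.24 (SE 0.19) that was not called (limma with Benjamini-Hochberg adjustment, adjusted p = 0.062). Ly6g6d had 85.3 and 92.6 in PD and 44.7 and 38.1 in PC and was not called. Their exons overlap on opposite strands, so these are not independent observations.

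Of 7 genes of chemokines, interleukins and their receptors 1, Ccl2, fell and 6 were not called. Ccl2, the chemokine that draws monocytes, had 6.8 and 16.5 normalized reads in PD and 0 reads in both PC libraries. Its PD mean of 11.6 was 3.85-fold the floor of 3 reads per library (adjusted p = 0.046 by limma). The PD libraries differed 2.43-fold from each other, so this ratio holds for the mean only. The call was lost with a pseudocount of 10 (adjusted p = 0.14 by limma). The spread of such a gene rests on the PD group alone, and in the authors' deposited table Ccl2 had a false discovery rate of 0.09. Cxcl11, a ligand of CXCR3, had 17.5 and 22.9 in PD and 5.8 and 5.9 in PC. It is annotated as a polymorphic pseudogene, and 40.4% of its words occur in other genes. Ccl28, a mucosal chemokine, had 3.9 and 0.0 in PD and 9.1 and 29.7 in PC, with libraries far apart within each group. Ccr4, a chemokine receptor of T helper cells, had 97.0 and 73.3 in PD and 35.6 and 22.6 in PC. The 3 genes were not called.

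The interleukin genes were not called. Il1rl2, the receptor for interleukin-36, had 133.8 and 192.5 in PD and 49.7 and 29.7 in PC. Its log2 change was -2.03 (SE 0.34, adjusted p = 0.089 by limma with Benjamini-Hochberg adjustment). Il17f, a cytokine that acts on epithelium, had 44.6 and 38.5 in PD and 101.1 and 83.3 in PC. Il4i1, an amino acid oxidase induced by interleukin-4, had 26.2 and 6.4 in PD and 94.4 and 82.1 in PC, a log2 change of 2.65 (SE 0.66, adjusted p = 0.29 by limma with Benjamini-Hochberg adjustment). Of its words 77.1% occur in other genes, chiefly Tbc1d17, Nup62 and Atf5, whose exons overlap it, so its reads may come from those genes. From a list of 31 interleukins and receptors, which does not hold these 3, none was in the table, and from a list of 26 chemokines and receptors, which does not hold Cxcl11, Ccl28 or Ccr4, the 1 in the table was Ccl2.

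Of 8 genes with TNF family symbols 1 fell and 7 were not called. Tnfaip6, a hyaluronan-binding protein induced by TNF, had 219.1 and 288.7 normalized reads in PD and 67.1 and 51.2 in PC. It fell by 2.08 in log2 units (limma with Benjamini-Hochberg adjustment, SE 0.24, adjusted p = 0.026). Tnfaip8l2, a negative regulator of immune signalling, had 39.8 and 55.0 in PD and 16.6 and 13.1 in PC and was not called.

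A ligand and its receptor were both in the table with opposite directions in value. Tnfsf11, the ligand RANKL, had 54.3 and 38.5 normalized reads in PD and 2.5 and 7.1 in PC, a log2 change of -3.13 (SE 0.55, adjusted p = 0.1 by limma with Benjamini-Hochberg adjustment). Its receptor RANK, Tnfrsf11a, had 66.9 and 69.7 in PD and 144.2 and 133.2 in PC, a change of 1.01 (SE 0.19, adjusted p = 0.11 by limma with Benjamini-Hochberg adjustment). Neither was called, and the PC libraries of Tnfsf11 differed 2.87-fold from each other. The other members that encode receptors of the family also had higher values in PC without a call. Tnfrsf13c, the receptor for the B cell factor BAFF, had 86.3 and 100.8 in PD and 285.0 and 207.0 in PC (adjusted p = 0.074 by limma). Cd27, a costimulatory receptor, had 22.3 and 26.6 in PD and 64.6 and 58.3 in PC, and Tnfrsf14, the herpesvirus entry mediator, had 9.7 and 2.7 in PD and 18.2 and 35.7 in PC. Tnfsf13os, a transcript antisense to Tnfsf13, had 66.9 and 48.6 in PD and 191.4 and 110.6 in PC, and its reads cannot be told apart from those of Tnfsf13 without strand. From 29 genes of the TNF family and NF-kB signalling 3 were listed, Fas, Tnfrsf11a and Tnfsf11, and none was called by limma. The death receptor Fas was at 96.5 ± 3.5 in PD and 31.3 ± 19.7 in PC.

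Among 7 CD antigens and Fc receptors 2 fell and 5 were not called. Cd80, a ligand that costimulates T cells, had 1030.8 and 1111.7 normalized reads in PD and 526.9 and 442.5 in PC. It fell by 1.15 in log2 units (limma with Benjamini-Hochberg adjustment, SE 0.13, adjusted p = 0.023). Fcgr3, a receptor for immunoglobulin G, had 19.4 and 15.6 in PD and none in either PC library, which is at least 5.78-fold lower against the floor (limma with Benjamini-Hochberg adjustment, adjusted p = 0.014). Cd3e, a chain of the T cell receptor complex, had 298.7 and 250.2 in PD and 131.7 and 130.9 in PC, just short of a call (limma with Benjamini-Hochberg adjustment, adjusted p = 0.061). Cd200, an inhibitory surface ligand, had 82.4 and 111.8 in PD and 35.6 and 38.1 in PC (log2 change -1.36, SE 0.27, adjusted p = 0.15 by limma with Benjamini-Hochberg adjustment). The T cell adhesion gene Cd2 had 30.1 and 27.5 in PD and 9.9 and 4.8 in PC, and Cd7, another T cell antigen, 31.0 and 36.7 in PD and 8.3 and 20.2 in PC. Cd300lf, an inhibitory receptor of myeloid cells, was the 1 gene of the group with higher values in PC, at 107.6 and 67.8 in PD and 211.3 and 190.3 in PC.

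Markers of blood cells were few in the table. Of 8 general leukocyte markers 1 was listed, Itgb2, and Ptprc is not analysed here. Of 10 T cell markers Cd3e and Cd2 were listed, with summed levels of 328.7 and 277.7 in PD and 141.7 and 135.6 in PC. Of 10 macrophage markers Cd14 was listed, at 30.1 and 33.0 in PD and 9.1 and 17.8 in PC, and of 8 B cell markers Pax5, at 54.3 and 78.8 in PD and 26.5 and 22.6 in PC. Of 6 megakaryocyte markers Gp1bb was listed, at 9.7 and 10.1 in PD and 20.7 and 53.5 in PC. Of 7 natural killer and 7 mast cell markers none was listed. Endothelial markers in the table were Tek and Kdr of 7, with summed levels of 3342.5 and 3526.6 in PD and 1498.7 and 1334.7 in PC. Extra-embryonic endoderm markers in the table were Gata6 and Sox17 of 9, which summed to 221.1 and 209.9 in PD and 466.4 and 511.5 in PC. Of 7 fibroblast markers Col3a1 was listed, at 89.2 and 113.6 in PD and 38.9 and 48.8 in PC. Of the listed markers in this paragraph Itgb2 and Tek fell and Gata6 rose, and the others were not called. Tek made up most of the endothelial sum, with a PD mean of 3362.7 beside 71.8 for Kdr. Gata6 made up most of the endoderm sum, with a PD mean of 188.6 beside 26.9 for Sox17. The part of such cells in the results was not tested.

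Of other surface families, Ms4a genes encode proteins that span the membrane 4 times, and 2 of the 3 listed ones fell. Ms4a14, known from testis, had 456.7 and 484.8 normalized reads in PD and 155.8 and 92.8 in PC. It fell by 1.96 in log2 units (limma with Benjamini-Hochberg adjustment, SE 0.26, adjusted p = 0.044), a call that was lost with a pseudocount of 0.1. Ms4a10 had 223.0 and 291.4 in PD and 39.8 and 40.4 in PC, and fell by 2.64 (SE 0.21, adjusted p = 0.014 by limma with Benjamini-Hochberg adjustment). Ms4a15 had 40.7 and 32.1 in PD and 13.3 and 16.7 in PC and was not called.

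Casp14, a caspase of cornifying epidermis that takes no part in apoptosis, had 401.5 and 544.4 normalized reads in PD and 73.7 and 58.3 in PC. With 7.16-fold less in PC it had, beside C4b, the largest ratios of group means among called genes with reads in both groups (limma with Benjamini-Hochberg adjustment, adjusted p = 0.014). From 25 caspases and apoptosis regulators Casp14 was the 1 in the table, and the executioner caspases are not analysed here. From a list of 26 genes of Toll-like receptors and inflammasomes, which does not hold Tlr3, the 1 in the table was Cd14.

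Serpins inhibit serine proteases, and of the 4 listed 1 fell and 3 were not called. Serpinb6c, of the intracellular clade B, had 719.5 and 798.3 normalized reads in PD and 285.8 and 293.8 in PC, and fell by 1.38 in log2 units (limma with Benjamini-Hochberg adjustment, SE 0.11, adjusted p = 0.014). Serpinb9b, a relative of the granzyme B inhibitor, had 188.1 and 161.3 in PD and 93.6 and 78.5 in PC. Serpinb6b had 13.6 and 25.7 in PD and 4.1 and 3.6 in PC, and Serpina3m, of the secreted clade A, had 22.3 and 16.5 in PD and 0.0 and 3.6 in PC. All 4 had lower values in PC, and 19.1% of the words of Serpina3m occur in other genes. From 17 genes of plasminogen and coagulation proteases 2 were listed. Plaur, the urokinase receptor, fell from 484.8 and 626.0 to 148.3 and 145.1 normalized reads (adjusted p = 0.014 in limma), and F7 was at 20.7 ± 0.5 in PD and 6.3 ± 0.5 in PC without a call.

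Per kilobase of exon in GENCODE M21, Ifitm3 was by far the most abundant of the 49 genes, at 7439.6 ± 14.7 normalized reads per kilobase in PD and 3261.3 ± 76.2 in PC (SD, n = 2). In PD the next levels were 545.6 ± 40 for Serpinb6c, 289.3 ± 15.5 for Cd80, 254.4 ± 47.9 for Ms4a10 and 217.3 ± 40 for H2-Bl. The gaps from Cd80 to Ms4a10 and from Ms4a10 to H2-Bl were smaller than 1 SD of Ms4a10. In PC the order changed: H2-Bl came next to Ifitm3, at 836.4 ± 109.4 normalized reads per kilobase, then Serpinb6c at 208.4 ± 4.1 and H2-Q7 at 137.4 ± 4.2. Tnfsf13os at 136.2 ± 51.5, Irf5 at 134.1 ± 5.5 and Cd80 at 130.9 ± 16.1 lay so close to H2-Q7 that their order is not set beyond the spread. At the other end, 10 of the 49 genes had a mean under 20 normalized reads over the 4 libraries.

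Agreement between the libraries of a group varied among the genes. The median ratio of the higher to the lower library was 1.28 in PD, over 48 genes with reads in both, and 1.20 in PC, over 45. In PD 6 genes differed more than 2-fold between the libraries (C1ra, C2, Ccl2, Cd46, Il4i1 and Tnfrsf14) and in PC 4 did (Ccl28, Cd2, Cd7 and Tnfsf11). Of these 10 genes Ccl2 was called. Of the 14 called genes 12 had a mean of at least 100 normalized reads, as did 23 of all 49. Exons of 18 of the 49 genes overlap those of another gene, and 17 share at least 10% of their 50-base words with other genes.

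**Figure D4:**
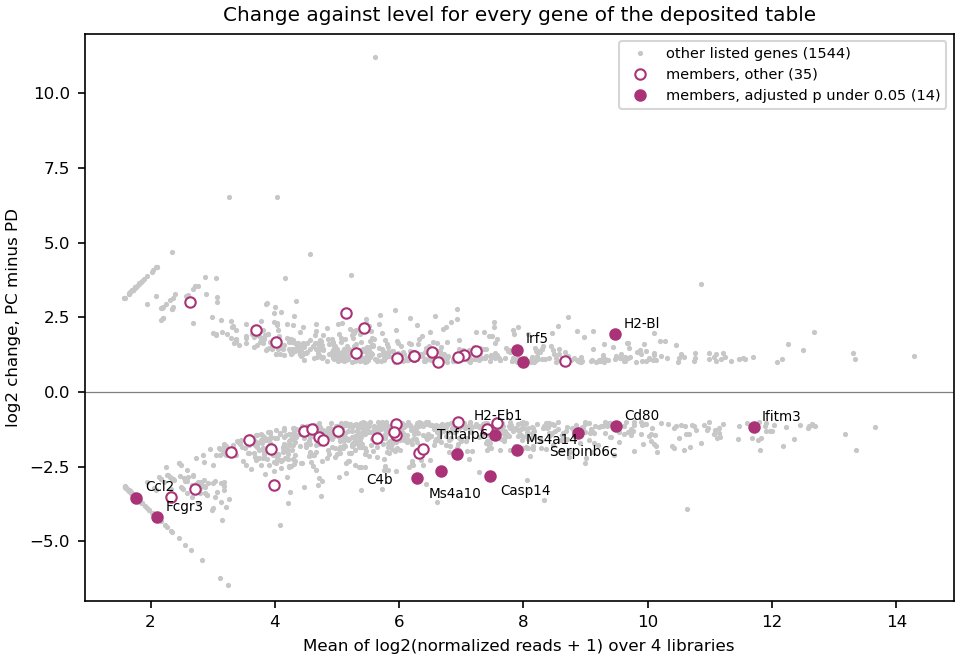
log2 change PC minus PD against the mean of log2(normalized reads + 1) over the 4 libraries, for all 1593 listed genes. Filled circles are the 14 called members (13 with their symbols), open circles the other 35 and grey points the remaining listed genes; the empty band around 0 is the fold limit by which the authors chose the rows, and Ccl2 and Fcgr3 lie on the line formed by genes at 0 reads in both PC libraries.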

How the data were processed

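The authors deposited 1 table with log2 values per gene and library, group means, log2 fold changes, and p-values with false discovery rates of their own test, per the file headers. Undoing the log and subtracting 1 gave whole multiples of 1 step per library (100.0% of values, tolerance 0.001 reads), so the deposited log2 values are log2(reads / size factor + 1), with factors from 0.8406 to 1.207. Bowtie 0.12.2 and mm9 appear, without a role, in the submitters' processing notes. No source used here gives the counting, strand setting, annotation or test.

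The deposited log2 values of all genes with a mean of at least 1 normalized read were fitted with limma 3.58.1 (R 4.3.3), with a trended prior and no replicate block. Unlisted genes were taken to have larger p-values. This did not hold in the authors' own test, where the listed gene with the largest p ranked 8099 among 31432 genes, with 1593 listed. Both the rank and the number of genes were inferred from the deposited p-values and false discovery rates, taking these rates as Benjamini-Hochberg values. Ranks in the adjustment may therefore be too low and adjusted p-values too large. The spread came only from rows selected on this contrast. The procedure was run on simulated data, but its error rate on rows selected in this way was not tested. A floor of 3 reads per library covers counting error only.

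Named with full statistics were called genes and, per role, the most abundant gene and the one with the largest change at a mean of at least 20, and from the pathway lists up to 4 listed genes each; every other member is given by its values, except that the results of 1 gene are not reported here. The members and lists were chosen with earlier results of these data known. Chromosomes, overlaps and exon lengths are from GENCODE M21 by gene ID (49 of 49 matched). Alternatives were a block, pseudocounts, a filter, leaving out libraries, an untrended prior, voom on recovered reads, and the authors' false discovery rates.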

Additional observations from a re-analysis of the deposited data

How the results depend on the processing

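Of the 49 genes the trended limma fit called 14 (3 higher, 11 lower), and 495 of all listed genes. With the replicate number as a block it called 39 (16 higher, 23 lower) and 1176 listed genes; the deviations of same-numbered libraries did not correlate (r = -0.0001 across 1593 genes), no label says that a number marks a shared culture, and the numbers were not treated as pairs. voom on recovered reads called 23 (5 higher, 18 lower). The authors' deposited false discovery rates called 40 (14 higher, 26 lower) and 1119 listed genes. A pseudocount of 10 called 21 (5 higher, 16 lower), and a minimum mean of 10, which left out Ccl2, Fcgr3 and Gbp8, called 19 (5 higher, 14 lower). With a pseudocount of 0.1 it called 12 (2 higher, 10 lower). Without the trend limma called 0 (0 higher, 0 lower) and 1 listed gene. Leaving out 1 library gave 0 to 2 calls (0 to 0 higher, 0 to 2 lower) and 33 to 61 listed genes, with a lone sample assumed to vary like the other group. The cause of these shifts was not tested. All 14 calls were shared by the block and by voom, 13 by the authors' rates and 12 with a pseudocount of 0.1. No gene of those fitted changed direction under any alternative, which the lack of overlap between groups nearly fixes. Depth limits the 10 genes under 20 normalized reads.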

Other observations

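Pathway annotation in the authors' deposited table was present for 32 of the 49 genes, beside 432 of all 1593 listed genes. Of 14 listed genes annotated to cytokine-cytokine receptor interaction 10 were members, and of these Ccl2 fell. Complement and coagulation cascades held 10 listed genes, 5 of them members, and antigen processing and presentation held 6, of which 5 were members. Of 11 listed genes of Toll-like receptor signalling 5 were members, Cd80, Cxcl11, Irf5, Irf7 and Tlr3, and of these Cd80 fell and Irf5 rose. Osteoclast differentiation held Fcgr3, Tnfrsf11a and Tnfsf11 among 7 listed genes. The pathway annotation also served to leave out Cd14, and the members were picked by family symbols, so these shares describe the table and test nothing.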
